A study of Mus musculus with 8 samples.

Results

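The muscle acetylcholine receptor subunits and acetylcholinesterase were examined in tibialis anterior (TA) muscle of old mice with and without fast myosin binding protein-C (fMyBP-C). The genes were taken from the gene table by symbol, and they are Chrna1, Chrnb1, Chrnd, Chrne, Chrng and Ache, which makes 6 of its 16686 genes. All 6 were kept by the default low-count filter of edgeR, which kept 12542 genes in all. RNA came from 4 WT Old and 4 C2-/- Old mice, with 1 library per mouse. All were males, FVBN by label, with an age label of 22 months, although another text in the labels gives a younger age. C2-/- mice carry a Neo cassette flanked by LoxP sites in place of exons 2 to 22 of Mybpc2, the gene for fMyBP-C, in every cell, and WT Old mice are labelled as wild type. The aged mice of this line are compared to learn what the loss of fMyBP-C does to old fast-twitch muscle.

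The receptor of the muscle endplate is a pentamer of alpha1, beta1, delta and either epsilon or gamma subunits, and it opens when it binds the acetylcholine that the motor nerve releases. The gamma subunit belongs to the fetal receptor and is replaced after birth by epsilon in the adult receptor. In innervated adult fibres, the nuclei beneath the nerve terminal transcribe the subunit genes, while electrical activity keeps them low along the rest of the fibre. Denervation raises the transcription of alpha1, beta1, delta and gamma outside the endplate. Acetylcholinesterase, held in the cleft by a collagen tail, splits the transmitter and ends each signal. Whole muscle was sequenced, so fewer endplates or nuclei that express a gene and less RNA in each of them cannot be told apart.

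Expected counts per mouse summed to between 25425993 and 29747692. Mybpc2 was at 4964, 5450, 5101 and 7392 CPM (counts scaled to library size by the TMM method) in WT Old and at 4.35, 4.02, 38.3 and 3.85 CPM in C2-/- Old, replicates 1 to 4. C2-/- Old replicate 3 thus held more of this mRNA than the other C2-/- Old mice. The summed level of 6 fast fibre genes (Myh4, Mylpf, Actn3, Tnnt3, Atp2a1 and Ckm) was 137720 to 196830 CPM in WT Old and 140497 to 165612 CPM in C2-/- Old, so the markers of the fast-twitch TA were high in all mice. One library, WT Old replicate 2, stood apart. It held the highest value of the 8 mice in 27.5% of all tested genes and the lowest in 24.5%, while these shares were 6.57% to 12.6% and 7.83% to 13.4% in the other 7 mice. For the 6 genes, the counts of calls and other values that this mouse turned or that lost or gained a call without it, the value without it is therefore given too. Nothing in the labels says more of the origin of the libraries than that each is a separate mouse.

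Between the genotypes, none of the 6 genes passed an adjusted p under 0.05 in edgeR's quasi-likelihood test, where 0.0319% of all tested genes did, Mybpc2 among them. Chrnd, the delta subunit, came closest, with an unadjusted p = 0.0121. It was the only one of the 6 with an unadjusted p under 0.05 in this test, in the direction of lower levels in C2-/- Old, where 1.91% of all tested genes were called, and none was called higher, where 3.38% were. The median log2 fold change of the 6 genes was −0.44 with all mice and −0.13 without WT Old replicate 2, beside −0.02 and 0.00 over all tested genes.

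The genes lie on 4 chromosomes (GRCm38), at intervals given here as the table gives them. Chrna1 (gene ID 11435) lies at chr2:73563281-73580338 on the minus strand. Chrnd (gene ID 11447) at chr1:87190597-87200070 and Chrng (gene ID 11449) at chr1:87205811-87211835 follow each other on the plus strand with 5741 bases between them. Chrnb1 (gene ID 11443) at chr11:69784036-69795974 and Chrne (gene ID 11448) at chr11:70614883-70619365 lie on the minus strand of chromosome 11. Ache (gene ID 11423) lies at chr5:137270627-137295664 on the plus strand. In GENCODE vM21 their transcripts have 9 (Chrna1), 12 (Chrnd, Chrng and Chrne), 11 (Chrnb1) and 5 exons (Ache). The table's interval of Chrnb1 overlaps Zbtb4, on the opposite strand, by 8748 bases, and that of Ache overlaps Ufsp1, on the same strand, by 996 bases. Chrnd and Chrng also lie within the interval that the table gives for Rcor3, chr1:202723-192138067. That span is too long to be read as the extent of 1 gene. Reads in the overlaps with Zbtb4 and Ufsp1 may have been assigned to either gene, since the sources used here do not state that counting used the strand.

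The promoters of 3 subunit genes are shown, chosen after their values were seen. WT Old replicate 2 was the highest mouse for the alpha1 and gamma subunits and did not stand apart for the epsilon subunit. This mouse was also highest for Chrnb1 and Chrnd and lowest for Ache, whose sequences are not printed. For Chrnd no promoter sequence was at hand. A link between these sequences and that mouse was not tested. RefSeq promoter sequences (GRCm38.p6) were at hand for Chrna1, Chrnb1, Chrne, Chrng and Ache. Capitals mark the E-box, CANNTG, which MyoD and myogenin bind and which reads the same on both strands, and the N-box, CCGGAA on either strand, which Ets factors such as GABP bind. The first 2 sequences are the 250 bases before the RefSeq start of the gene, 5′ to 3′ on its own strand, at chr2:73580339-73580588 for Chrna1 and at chr1:87205561-87205810 for Chrng.
Chrna1: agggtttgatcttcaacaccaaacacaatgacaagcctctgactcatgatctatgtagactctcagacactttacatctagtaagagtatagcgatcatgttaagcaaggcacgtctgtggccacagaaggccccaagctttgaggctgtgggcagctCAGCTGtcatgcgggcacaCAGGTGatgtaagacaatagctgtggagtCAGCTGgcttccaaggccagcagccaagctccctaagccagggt
Chrng: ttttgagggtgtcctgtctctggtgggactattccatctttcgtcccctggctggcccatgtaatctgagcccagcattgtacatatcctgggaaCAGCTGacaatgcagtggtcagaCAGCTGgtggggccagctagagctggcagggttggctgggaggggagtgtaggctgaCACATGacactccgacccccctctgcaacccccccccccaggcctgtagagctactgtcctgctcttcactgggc
For the other genes, the RefSeq start lies inside the table's interval, so their windows overlap it: chr11:69795938-69796187 (Chrnb1) and chr11:70619195-70619444 (Chrne) in part, and chr5:137288004-137288253 (Ache) as a whole. The windows of Chrna1, Chrng and Chrnb1 each held 3 E-boxes, those of Chrne and Ache 1. Of 32851 windows of this length in the table, 66.2% held at least 1 E-box and 12.2% at least 3. The form CAGCTG, which is itself an E-box, occurred 2 times each in the windows of Chrna1 and Chrng, 1 time in that of Chrne and not in those of Chrnb1 and Ache, and 1.26% of all windows held it at least 2 times. The N-box was found only in the window of Chrne among these 5, and 12.0% of all windows held it. The 30 bases around the E-box and the N-box of Chrne, which begin 138 and 76 bases before its RefSeq start, are at chr11:70619315-70619344 and chr11:70619253-70619282 on the minus strand.
Chrne E-box: cacaggatggggCAGCTGcctcccccaccc
Chrne N-box: cccaaacctagcCCGGAActaacaccctcc
A match in these letters is a description of the sequence and does not show that a factor was bound.

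Chrnd encodes the delta subunit, which both the fetal and the adult receptor hold. Its level was 6.09, 9.08, 4.03 and 3.87 CPM in WT Old and 3.82, 2.83, 3.30 and 2.98 CPM in C2-/- Old. The groups did not overlap, with all WT Old mice above all C2-/- Old mice, though their nearest values, 3.87 and 3.82 CPM, nearly met. Over all tested genes, 1.36% had every C2-/- Old mouse below every WT Old mouse. The mean was 5.77 ± 2.43 CPM in WT Old and 3.23 ± 0.440 CPM in C2-/- Old (SD, n = 4). The log2 fold change was −0.84 (SE 0.27, 95% interval −1.45 to −0.23), with an adjusted p = 0.755 in edgeR's test. Without WT Old replicate 2 it was −0.52 (SE 0.21), with an adjusted p = 0.788. The summed markers of fibro-adipogenic cells (Pdgfra, Dcn and Lum, 3 of 3 detected) also did not overlap, in the other direction. The sums were 203 to 294 CPM in WT Old and 303 to 352 CPM in C2-/- Old. Dcn made up most of them, at 185 to 262 CPM and 270 to 317 CPM. Pdgfra by itself overlapped, at 6.99 to 11.7 CPM in WT Old and 10.3 to 14.0 CPM in C2-/- Old. With an unadjusted p under 0.05, 1 of the 3 was higher, and 2 without WT Old replicate 2. With all mice, 3.38% of all tested genes were higher. The part of these markers in the result was not tested. The sums of the other 10 marker lists overlapped between the genotypes. Single markers in them differed more. Of 6 slow fibre genes 4 had a lower and 2 a higher mean in C2-/- Old. At an unadjusted p under 0.05, 2 were lower (Myh7 and Myl2), and 3 without WT Old replicate 2, beside 1.91% of all tested genes with all mice. Their median log2 fold change was −0.64, and −0.88 without that mouse. Myh7 was at 20.9 CPM in WT Old replicate 4 and at 0.365 to 2.62 CPM in the other mice. WT Old replicate 4 was also the highest for Myl2, at 4.13 CPM. For Myl2, all C2-/- Old mice (0.372 to 0.971 CPM) lay below all WT Old mice (1.34 to 4.13 CPM), as in 1.36% of all tested genes. Of 7 tendon genes 6 had a higher mean in C2-/- Old and 1 (Tnmd) was called at that threshold. The median of these 7 was 1.11, and 0.77 without WT Old replicate 2. In 4 further lists, calls arose only without that mouse. Of all 12542 tested genes, 507 were higher and 230 lower at that threshold without it, against 424 and 239 with all mice. Without this mouse, 2 of 7 Schwann cell genes were lower (Mbp and S100b). Higher were 1 of 5 macrophage (Cd68), 1 of 4 adipocyte (Adipoq) and 1 of 4 satellite cell genes (Myod1). None of these passed an adjusted p under 0.05 in edgeR's test, and their part in the result was not tested either.

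Chrna1 encodes the alpha1 subunit, which carries the main face of the acetylcholine binding site. Its level was 26.1, 60.3, 20.3 and 25.4 CPM in WT Old and 26.3, 23.4, 25.3 and 15.4 CPM in C2-/- Old. The high mouse, WT Old replicate 2, was at 2.37 times the median of the other WT Old mice, and the remaining values of both groups overlapped. The log2 fold change was −0.55 (95% interval −1.26 to 0.17), with an adjusted p = 0.968 in edgeR's test, and −0.08 without this mouse (95% interval −0.49 to 0.33), with an adjusted p = 0.999.

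Chrnb1, the beta1 subunit, links the receptor to rapsyn beneath the membrane. Its level was 42.5, 70.3, 50.9 and 50.8 CPM in WT Old and 37.5, 43.9, 49.7 and 39.6 CPM in C2-/- Old. The highest mouse was again WT Old replicate 2, at 1.38 times the median of the other WT Old mice, and the groups overlapped. The log2 fold change was −0.33 (95% interval −0.69 to 0.03), with an adjusted p = 0.968 in edgeR's test, and it was −0.17 without WT Old replicate 2 (95% interval −0.45 to 0.11). Zbtb4, a zinc finger gene whose interval overlaps Chrnb1, was at 40.6 CPM in this mouse and at 57.5 to 70.1 CPM in the other 7, so the 2 genes that share the interval lay on opposite sides there. Fgf11, a fibroblast growth factor gene whose interval lies 94 bases from that of Chrnb1, was also lowest in this mouse, at 4.60 CPM against 7.40 to 16.4 CPM. Of the 10 nearest neighbours of the 6 genes, 6 were tested (Wipf1, Chn1, Fgf11, Mink1, Eif4e2 and Srrt), and none passed either threshold, with log2 fold changes of −0.44 to 0.22. Without WT Old replicate 2, Fgf11 was at −0.69, with an unadjusted p = 0.0019 and an adjusted p = 0.417 in edgeR's test.

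Chrne, the epsilon subunit of the adult receptor, varied least among WT Old mice. Its level was 10.4, 10.7, 11.7 and 12.3 CPM in WT Old and 14.1, 9.97, 7.77 and 7.97 CPM in C2-/- Old. For this subunit WT Old replicate 2 did not stand apart, and the highest and the lowest mice were both C2-/- Old. The mean was 11.2 ± 0.881 CPM in WT Old and 9.96 ± 2.95 CPM in C2-/- Old (SD, n = 4). The log2 fold change was −0.18 (95% interval −0.60 to 0.25), with an adjusted p = 0.971 in edgeR's test. It was −0.19 without WT Old replicate 2 (95% interval −0.65 to 0.26). Without C2-/- Old replicate 1 it was −0.38, with an adjusted p = 0.983 in edgeR's test.

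Chrng, the gamma subunit of the fetal receptor, was the lowest of the 6 genes in every mouse and rested on few counts. It had 6, 58, 7 and 17 counts in WT Old and 10, 14, 26 and 9 counts in C2-/- Old, so every mouse was above 3 counts, the lowest level treated as detectable. These were 0.231, 2.12, 0.261 and 0.615 CPM in WT Old and 0.379, 0.521, 0.922 and 0.312 CPM in C2-/- Old. The highest was WT Old replicate 2, the second C2-/- Old replicate 3, and the groups overlapped. The log2 fold change was −0.59 (95% interval −2.13 to 0.94), with an adjusted p = 0.974 in edgeR's test. Its direction turned without WT Old replicate 2, to 0.53 (95% interval −0.66 to 1.72), with an adjusted p = 0.994.

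Ache, the enzyme that hydrolyses acetylcholine, had the opposite pattern in WT Old replicate 2. Its level was 57.9, 23.1, 57.8 and 57.1 CPM in WT Old and 69.1, 45.5, 49.8 and 49.5 CPM in C2-/- Old. The lowest mouse was WT Old replicate 2, at 0.399 times the median of the other WT Old mice, which lay within 1 CPM of each other. The log2 fold change was 0.13 (95% interval −0.47 to 0.73), with an adjusted p = 0.987 in edgeR's test. The direction turned without WT Old replicate 2, to −0.10 (95% interval −0.42 to 0.22), and without C2-/- Old replicate 1, to −0.01. Ufsp1, a protease gene that shares the 3′ end of the Ache interval, was at 8.72 CPM in WT Old replicate 2 and at 14.6 to 18.4 CPM in the other 7 mice. With the counts of both genes summed, the log2 fold change was 0.13.

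**Figure D1:**
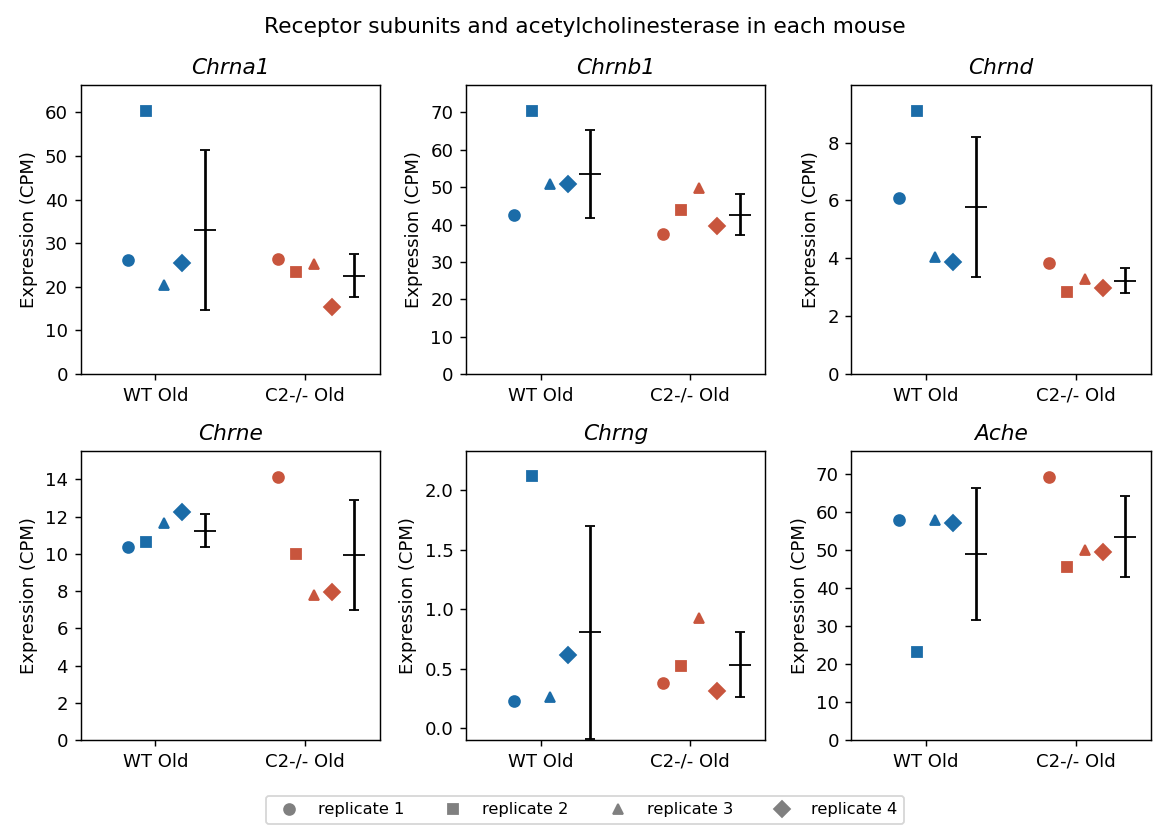
Expression of the 6 genes in CPM (y axis, one panel per gene) in WT Old (blue) and C2-/- Old (red) mice, with a marker shape per replicate number and the mean ± SD of 4 mice in black beside the points. WT Old replicate 2 (blue square) is the highest mouse for Chrna1, Chrnb1, Chrnd and Chrng and the lowest for Ache, while for Chrnd all C2-/- Old mice lie below all WT Old mice.

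**Figure D2:**
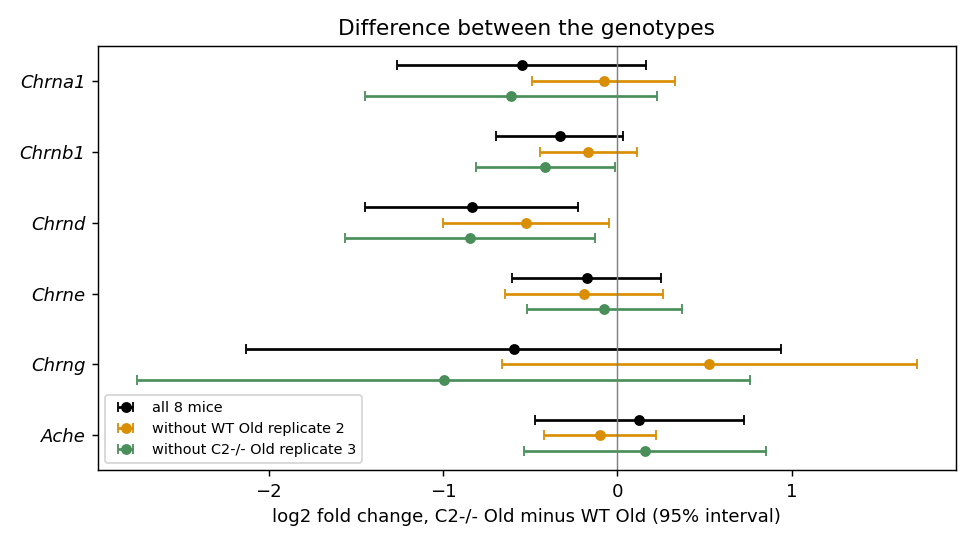
Log2 fold change of C2-/- Old minus WT Old (x axis) with its 95% interval from the edgeR fit, for all 8 mice (black), without WT Old replicate 2 (orange) and without C2-/- Old replicate 3 (green). Without WT Old replicate 2, Chrna1 moves from −0.55 to −0.08 and Chrng from −0.59 to 0.53, while the interval of Chrnd stays below 0 in all 3 fits.

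Levels of different genes were compared on the authors' TPM, which are scaled to transcript length. From high to low, the order was Ache, Chrnb1, Chrne, Chrna1, Chrnd and Chrng in 5 of 8 mice. Chrnb1 (31.9 to 54.9 TPM) and Ache (17.2 to 56.2 TPM) overlapped over the mice, and so did Chrne (9.25 to 16.2 TPM) and Chrna1 (6.90 to 23.0 TPM). Chrnd followed at 1.89 to 5.09 TPM and Chrng at 0.230 to 1.93 TPM, and both were below the other 4 genes in every mouse. In WT Old replicate 2 alone, Chrna1 was above Ache. In counts per kilobase, which need no scaling between libraries, Chrna1 was 24.1% of the 5 subunits in this mouse and 12.5% to 17.8% in the other 7. Chrne was 11.8% there and 13.9% to 26.3% in the others, and Chrnb1, at 57.3%, lay within their range of 51.6% to 65.6%.

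The adult and the fetal subunit compete for the same place in the receptor, so their mRNA was compared within each library. The fetal share, Chrng over the sum of Chrng and Chrne in counts per kilobase of transcript, was 1.26%, 10.2%, 1.27% and 2.79% in WT Old and 1.51%, 2.90%, 6.36% and 2.19% in C2-/- Old. The highest mouse, WT Old replicate 2, had a 95% Wilson interval of 7.91% to 13.1%, and the next, C2-/- Old replicate 3, one of 4.34% to 9.24%. These intervals cover counting error only. The first did not overlap that of any mouse but C2-/- Old replicate 3, and the second overlapped those of WT Old replicate 4 and C2-/- Old replicate 2, which reached 4.44% and 4.84%. The log2 ratio of Chrne to Chrng per kilobase was 5.14 ± 1.44 in WT Old and 5.06 ± 0.890 in C2-/- Old (SD, n = 4). The difference of −0.09 had p = 0.857 in a two-sided exact permutation test, whose smallest possible p is 0.0286. Without WT Old replicate 2 the difference was −0.76, with p = 0.286 in the same exact test, which then allows no p under 0.0571. The difference turned to 0.26 without WT Old replicate 1, to 0.26 without WT Old replicate 3 and to 0.32 without C2-/- Old replicate 3. The adult subunit mRNA was thus above the fetal one in all 8 mice, by 8.74 to 72.8 times per kilobase and by 5.85 to 51.0 times in TPM. The transcript lengths used, 1591 bases for Chrne and 2780 bases for Chrng, come from GENCODE vM21 and set the size of each share and ratio, but not the difference in log2 ratio between mice. The authors' TPM imply a shorter Chrng transcript, so the lengths are uncertain. In TPM, the fetal share was 14.6% in WT Old replicate 2, 9.31% in C2-/- Old replicate 3 and 1.92% to 4.21% in the other 6 mice.

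**Figure D3:**
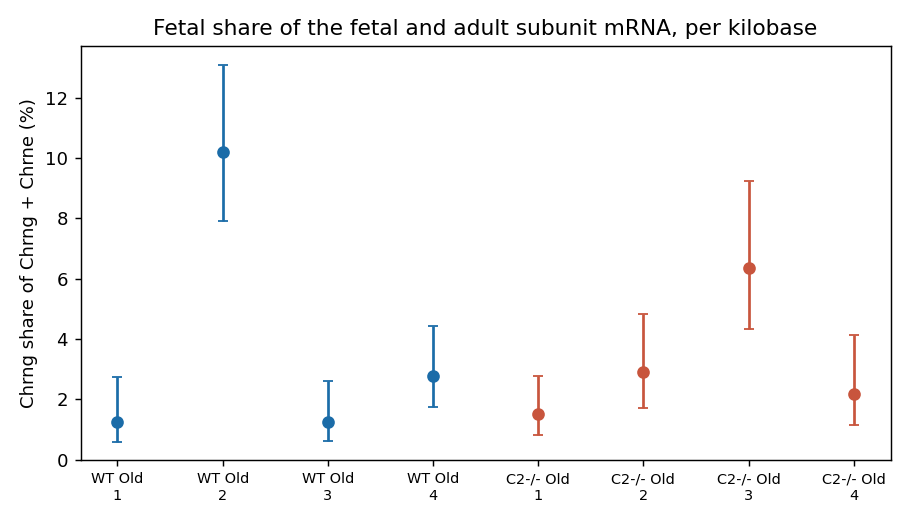
Share of Chrng in the sum of Chrng and Chrne, in counts per kilobase (y axis, percent), for each mouse (x axis), with 95% Wilson intervals that cover counting error only. WT Old replicate 2 at 10.2% and C2-/- Old replicate 3 at 6.36% lie above the other 6 mice, which lie between 1.26% and 2.90%.

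Genes that act on or around the receptor were counted in the same fit, from lists chosen with earlier results of these data known. Of 64 listed genes 59 were in the table and 48 were tested. None passed an adjusted p under 0.05 in edgeR's test. With an unadjusted p under 0.05, 3 were higher in C2-/- Old (Etv4, Myh3 and Myh8) and 0 were lower, that is 3 of 48, where 3.38% of all tested genes were higher and 1.91% lower. Without C2-/- Old replicate 3 no gene was higher at that threshold. Without WT Old replicate 2 the calls of Etv4, Myh3 and Myh8 were all lost, with log2 fold changes of 0.61, 1.10 and 0.77. In that fit 2 other genes were called higher and 0 lower, where 507 and 230 of all 12542 tested genes were. The 2 were Runx1 (0.94) and Myod1 (0.78), with adjusted p = 0.470 and adjusted p = 0.691 in edgeR's test. The median log2 fold change of the 48 tested genes was −0.01 with all mice, beside −0.02 over all tested genes. Without WT Old replicate 2 it turned to 0.01, beside −0.002.

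The agrin pathway gathers the receptors at the nerve contact, through agrin from the nerve, its receptor Lrp4, the kinase MuSK, the adaptor Dok7 and the anchor rapsyn. Of its 11 genes, with the collagen tail and membrane anchors of acetylcholinesterase included, 5 had a higher and 6 a lower mean in C2-/- Old, and none passed either threshold. Rapsn, the receptor's anchor, was at 36.3 to 49.5 CPM in WT Old and 35.5 to 43.3 CPM in C2-/- Old, with a log2 fold change of −0.14. Prima1, which anchors acetylcholinesterase in membranes, had a log2 fold change of −0.32, and Musk one of −0.26. Musk was highest in C2-/- Old replicate 3, at 25.7 CPM, and lowest in C2-/- Old replicate 1, at 8.55 CPM. In the postsynaptic scaffold, none of 10 tested genes passed either threshold. Dtna, for alpha-dystrobrevin, which stabilises the receptor clusters, had a log2 fold change of −0.29 with an adjusted p = 0.948 in edgeR's test. Sntb1, a syntrophin, had a log2 fold change of −0.75, with levels of 1.75 to 3.10 CPM in WT Old and 0.555 to 2.23 CPM in C2-/- Old. Erbb3, a neuregulin receptor, had a log2 fold change of 0.51.

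Among 14 tested regulators of the subunit genes, 1 was higher (Etv4) and 0 lower at an unadjusted p under 0.05. Without WT Old replicate 2 these were 2 (Runx1 and Myod1) and 0, where 507 and 230 of all 12542 tested genes were called. Etv4, an Ets factor, was at 0.985 to 2.08 CPM in WT Old and 1.63 to 3.26 CPM in C2-/- Old, and its log2 fold change was 0.73, with an adjusted p = 0.922 in edgeR's test. Hdac5, a histone deacetylase, and Gabpa, a part of the N-box factor GABP, both had a log2 fold change of −0.16. Of 8 tested genes that respond to denervation, 2 were higher and 0 lower at that threshold with all mice, beside 3.38% and 1.91% of all tested genes. These 2 were the embryonic and perinatal myosin heavy chains. Neither was called without WT Old replicate 2, while 1 other gene, Runx1, was then called higher. Myh3 was at 1.97, 1.60, 2.43 and 1.23 CPM in WT Old and 2.61, 1.49, 8.76 and 3.09 CPM in C2-/- Old, with a log2 fold change of 1.14 and an adjusted p = 0.919. Myh8 was at 1.74, 1.60, 4.26 and 1.92 CPM in WT Old and 2.35, 4.02, 7.20 and 4.26 CPM in C2-/- Old, with a log2 fold change of 0.91 and an adjusted p = 0.920. Both were highest in C2-/- Old replicate 3, the mouse with the second highest Chrng. Ncam1, the neural cell adhesion molecule, had a log2 fold change of −0.48, and of 0.02 without WT Old replicate 2. The median of these 8 genes was −0.18, and it turned to 0.54 without WT Old replicate 2.

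Of 6 tested genes that fold and export the subunits, none passed either threshold, and Ric3, Rer1 and Hspa5 had log2 fold changes of 0.30, −0.10 and −0.15. Without WT Old replicate 2, Hspa5 turned to 0.10. Of 11 other nicotinic subunits, 8 were in the table, and only Chrna4, a neuronal subunit, was tested, while the rest reached at most 1.09 CPM in a mouse (Chrna9). Chrna4 was at 0.401 to 4.93 CPM in WT Old and 0.426 to 2.38 CPM in C2-/- Old, with a log2 fold change of −0.85. Bche, butyrylcholinesterase, had a log2 fold change of 0.50. Chrna3, Chrna6, Chrnb3, Chat and Slc18a3 were not analysed here.

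The library of WT Old replicate 2, with its high Chrna1, Chrnb1, Chrnd and Chrng, also held the highest value of the 8 mice in 5 of the 8 tested genes that respond to denervation, in 7 of the 14 regulators and in 5 of the 6 folding genes, beside 27.5% of all tested genes. In the agrin pathway it was the highest in 2 and the lowest in 3 of 11 genes, and in the postsynaptic scaffold the highest in 0 and the lowest in 4 of 10. It was the lowest in 2 of the 8 genes that respond to denervation, in 4 of the 14 regulators and in 1 of the 6 folding genes. Over all tested genes this share was 24.5%. Myog, Runx1 and Hdac4 are counted both as regulators and as genes that respond to denervation. The following genes were named after their values were seen. Myog, for myogenin, was at 16.7 CPM in this mouse and at 2.68 to 6.31 CPM in the other 7. Runx1, a transcription factor that denervated muscle expresses, was at 21.4 CPM against 2.88 to 9.63 CPM. Ncam1 was at 38.2 CPM against 11.9 to 18.4 CPM, Gadd45a at 40.0 CPM against 6.54 to 22.8 CPM, and Ampd3 at 36.6 CPM against 5.44 to 14.8 CPM. Myod1 was at 155 CPM against 36.2 to 115 CPM, and Myf6 at 157 CPM against 58.7 to 94.9 CPM. In contrast, Myh3 and Myh8, which also respond to denervation, were not high in this mouse. Lrp4 was lowest there, at 4.89 CPM against 9.72 to 13.3 CPM. Hdac9, a repressor, was at 1.79 CPM against 3.69 to 11.1 CPM. Hdac4 was also lowest there, at 25.1 CPM against 26.8 to 60.8 CPM. Among markers of other cells, the 7 Schwann cell genes summed to 54.1 CPM in this mouse, within the range of the C2-/- Old mice (48.0 to 87.5 CPM), and the 8 tendon genes to 59.5 CPM, the lowest of all. The satellite cell markers (Pax7, Myod1, Myf5 and Cdh15) summed to 185 CPM there and to 67.8 to 142 CPM in the others, but 155 CPM of this sum was Myod1. Pax7, the defining marker of these cells, was at 0.365 CPM there and at 0.347 to 0.871 CPM in the others, and Myf5 and Cdh15 also lay within the range of the others. Immediate early genes summed to 543 CPM in this mouse, and WT Old replicate 4 and C2-/- Old replicate 2 were also high, at 1227 and 762 CPM, against 34.9 to 83.1 CPM in the other 5. The part of these values in the levels of the receptor subunits was not tested.

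**Figure D4:**
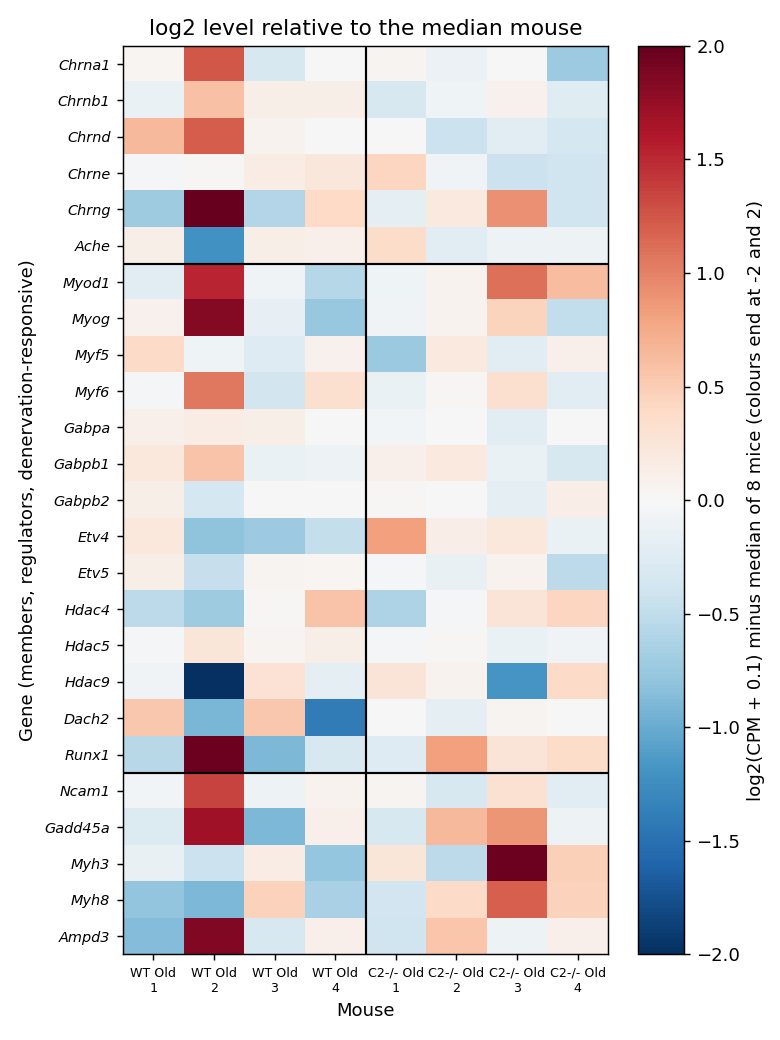
Level of each tested gene in each mouse (x axis) as log2(CPM + 0.1) minus the median of the 8 mice, in red above and blue below the median, with colours that end at −2 and 2. From the top, the blocks are the 6 genes, the regulators of the subunit genes and the remaining genes that respond to denervation. The column of WT Old replicate 2 is red for Chrna1, Chrnd, Chrng, Myog, Runx1, Ncam1, Gadd45a and Ampd3 and blue for Ache and Hdac9, while Myh3 and Myh8 are reddest in C2-/- Old replicate 3.

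For each of the 6 genes, the genes with the most similar levels over the 8 mice were found by Pearson's r of log2 CPM, as a description, since the best of so many genes is high by selection and all genes share the 8 libraries. Chrna1 was most like Rps6kb2, Txnl1 and Psma4, with r of 0.989, 0.989 and 0.985, and r of 0.949, 0.967 and 0.965 without WT Old replicate 2. Chrnb1 was most like Prpf6, Cab39 and Procr (0.969, 0.968 and 0.967). Chrnd was most like Prcc, Ubac2 and Tango2 (0.983, 0.982 and 0.973). Chrng was most like Ftsj3, Mt2 and Zfp277 (0.983, 0.982 and 0.976), and Mt2, a metallothionein, was at 216 CPM in WT Old replicate 2 and at 5.17 to 35.8 CPM in the others. Ache was most like Ado, Fam131a and Alpl (0.986, 0.972 and 0.970), all of which were lowest in WT Old replicate 2. Chrne, which did not stand apart in that mouse, was most like 2510002D24Rik, Asf1a and Pax3 (0.964, 0.939 and 0.936). No gene of the pathway lists was among these 18.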

How the data were processed

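RNA of TA muscle from 4 WT Old and 4 C2-/- Old mice was enriched with oligo(dT) and sequenced, with groups taken from the labels. The authors deposited 1 table with expected counts per gene and with TPM and FPKM (not used here), from reads aligned to GRCm38.p6; the submitters' processing notes name HISAT, Bowtie2 and DESeq2. Per mouse, 5.50% to 6.53% of the counts are not whole numbers, and counts were rounded. The authors' averages and their columns of log2 fold changes, p-values and q-values were not used. The genes and lists were chosen with earlier results of these data known.

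Counts were tested with edgeR 4.0.16 (R 4.3.3; quasi-likelihood, TMM factors of 0.929 to 1.03, default filter, Benjamini-Hochberg adjustment over 12542 genes), after a check on simulated counts. The adult to fetal ratio used counts per kilobase plus 0.5 counts, in Python 3.11.15 with scipy 1.17.1. Depth, 25425993 to 29747692 counts per mouse, puts 3 counts at 0.101 to 0.118 CPM, for counting error only. In each list up to 3 genes with the smallest p were named, with the 3 genes most like each of the 6, overlapping genes and nearest neighbours; exceptions are stated. Alternatives were RLE factors, limma 3.58.1 with voom, plain or with quality weights, DESeq2 1.42.0, no filter, 10 counts in every mouse, log2(TPM + 0.1) with limma, the replicate number as a block, ratio pseudocounts of 1 and 2 counts, the ratio in TPM and leaving out each mouse. Summing Ache and Ufsp1 was chosen after seeing the data.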

Additional observations from a re-analysis of the deposited data

Results flagged for a closer look

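In groups of 4 mice, a highest or lowest value was singled out where its gap to the nearest mouse exceeded Dixon's 95% critical share of the range of the group. Chance alone singles out about 1 in 20 groups. The 14 looked at come from the same 8 mice and are not independent, so their number cannot be weighed against this rate. Of them, 2 exceeded the value. Both were WT Old replicate 2, for Chrna1 at 60.3 CPM, above the 20.3 to 26.1 CPM of the other WT Old mice, and for Ache at 23.1 CPM, below their 57.1 to 57.9 CPM. The gap for Chrng in the same mouse was 0.796 of the range, short of the value.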

How the results depend on the processing

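Over 96 combinations of the 6 genes with an alternative, no adjusted p was under 0.05, and 91 kept the direction. Chrnd was lower in C2-/- Old under all 16 alternatives, by −0.97 to −0.52, with an unadjusted p under 0.05 in each. Such a p also arose for Chrna1 in 1, Chrnb1 in 2 and Chrne in 1 of 16 alternatives. The direction of Chrng turned to 0.17 under limma-voom with quality weights and to 0.53 without WT Old replicate 2, with a range of −0.996 to 0.53 over the mice left out. With 10 counts in every mouse Chrng was not tested. Ache turned to −0.067 with quality weights, to −0.10 without WT Old replicate 2 and to −0.01 without C2-/- Old replicate 1, within −0.10 to 0.22. The adult to fetal difference turned to 0.26 without WT Old replicate 1 or 3 and to 0.32 without C2-/- Old replicate 3, within −0.76 to 0.32. The causes of these turns were not tested, except that leaving out a mouse removes its value. Pathway genes higher at an unadjusted p under 0.05 numbered 3, 1 with quality weights and 0 to 3 over the mice left out. Those lower numbered 0, 1 with limma-voom, 2 with quality weights, 1 with the replicate block and 0 to 2 over the mice left out.

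Both groups carry the replicate numbers 1 to 4, but these are different mice. Of the 4 same-numbered pairs, 1 deviated together (r of −0.05 to 0.27). This pair, replicate 1 of each group, had the highest r of all pairs, while pairs of unlike numbers reached at most 0.20. Whether same-numbered samples share more than a number cannot be told from so few pairs. With the replicate block, log2 fold changes were −0.44 (Chrna1), −0.31 (Chrnb1), −0.76 (Chrnd), −0.21 (Chrne), −0.25 (Chrng) and 0.20 (Ache), the ratio difference was −0.09, and none of the 6 genes or the ratio crossed its threshold. The depth of Chrng, 6 to 58 counts, limits what can be said of the fetal subunit.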
